A study of Mus musculus with 4 samples.

Results

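Sites of the transcription factor RUNX1 and of the histone mark H3K27me3 were examined at 9 genes of the Hippo pathway: Tead1, Tead2, Tead3 and Tead4, Yap1, Wwtr1 (the gene of TAZ), Vgll4, Lats1 and Lats2. A site belonged to a gene when its summit lay inside the gene body of GENCODE's mm10 annotation or within 50 kb of it. By this rule 37 of 24972 RUNX1 sites lay at the 9 genes, which are 9 of the 21938 protein-coding genes annotated on the autosomes, X and Y. Of the 37 sites, 15 had the transcription start of the gene itself as the nearest start, and 14 lay inside the gene body.

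The line was made from mouse ESCs, embryonic stem cells, and has the genotype Tet-on dominant-negative FOS (dnFOS), a peptide that blocks DNA binding of the AP-1 family and is switched on by Doxycycline (DOX). They had been differentiated in vitro and were taken as floating haematopoietic progenitors at day 2, and all 4 libraries come from this line, so a comparison of +DOX with -DOX includes the drug itself, with no line that lacks the transgene beside it. After crosslinking of the chromatin by formaldehyde and DSG, ChIP-seq gave 2 RUNX1 libraries, labelled +DOX and -DOX, and 2 H3K27me3 libraries, titled untreated and DOX, with 1 library per condition. With no replicate, no difference between libraries could be tested, and each value below describes these libraries alone. For RUNX1 the run name in each peak list gives the treatment opposite to the label, so the libraries are named by their labels (the -DOX-labelled and the +DOX-labelled list), and every direction between them turns round if they were exchanged. For H3K27me3 the titles and the treatment labels contradict each other, and the protocol names an antibody against RUNX1, so these libraries are named by their titles and assigned to no treatment.

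The lists held 18389 RUNX1 peaks (-DOX-labelled) and 21831 (+DOX-labelled), and 6356 and 7233 H3K27me3 peaks in the libraries titled untreated and DOX. Depth is unknown, so strength is given as fold enrichment over local background, as -log10 q of the peak, and above all as percentile, the rank of that -log10 q within its own list from 0 to 100. As a check of the cell type, 7 of 8 blood progenitor markers were the nearest start of a RUNX1 site, Spi1 with a site at percentile 99.3 and Itga2b with one at 98.7, whereas Kit had no site within 50 kb. Of the endothelial markers 5 of 6 were nearest to a site, against 1 of 4 pluripotency markers and 2 of 4 neural markers. The share over all protein-coding genes was 51.8%. These RUNX1 counts do not tell blood progenitors from endothelium. H3K27me3 peaks within 1500 bp of a start were found at 0 of 8 blood and 0 of 6 endothelial markers, at 2 of 4 pluripotency markers and 3 of 4 neural markers in each H3K27me3 list, against 11.7% and 11.1% of all protein-coding genes, so that the counts of 0 do not set the blood and endothelial markers apart. Neither binding nor the mark is a measure of expression, and the lists hold no value for the induction of dnFOS.

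TEAD proteins are DNA-binding factors with little activity of their own. YAP, the product of Yap1, and TAZ, the product of Wwtr1, are co-activators that bind TEAD in the nucleus when the Hippo kinases are quiet, whereas the kinases LATS1 and LATS2 phosphorylate both and keep them out of it. VGLL4 competes with YAP and TAZ for TEAD. TEAD and AP-1 factors often share enhancers, RUNX1 is the factor that starts the blood programme in endothelium, and H3K27me3 is deposited by Polycomb complexes at silent genes.

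The sequences at the summits are given first, because they show where the letters recognised by TEAD, AP-1 and RUNX1 lie at these genes. Of the sites whose nearest start is a member's, the 8 with the highest percentile are shown, at most 2 for a gene. Reference sequence of mm10 is printed 5′ to 3′ on the plus strand, with capitals for matches to the motifs searched, TEAD (GGAATG, which reads CATTCC on the other strand), AP-1 (TGACTCA, which then reads TGAGTCA), RUNX (TGTGGTT, which reads AACCACA), ETS (CAGGAAG, as well as CCGGAAG, as well as CAGGAAA, as well as CCGGAAA), that of the GATA factors (searched as AGATAA), PU.1 (GAGGAAGT, which holds part of an ETS match) and C/EBP (TTGCNNAA). Where the matches lie in an annotated untranslated region, only 30 bases around the TEAD and RUNX matches are shown, and the bases of Wwtr1 site 1 that lie in one were left off. A match is a description of the letters and not evidence of a bound factor.
Vgll4 site 5, chr6:114893829-114894029, plus strand: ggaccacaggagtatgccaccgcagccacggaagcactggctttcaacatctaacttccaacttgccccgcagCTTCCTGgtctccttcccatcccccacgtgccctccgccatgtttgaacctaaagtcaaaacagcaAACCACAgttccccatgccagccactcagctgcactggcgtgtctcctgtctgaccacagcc
Vgll4 site 6, chr6:114875103-114875303, plus strand: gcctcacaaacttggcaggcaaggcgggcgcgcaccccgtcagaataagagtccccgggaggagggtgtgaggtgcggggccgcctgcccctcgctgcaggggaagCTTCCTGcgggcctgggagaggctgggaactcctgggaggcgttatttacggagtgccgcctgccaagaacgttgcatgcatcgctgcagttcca
Lats2 site 2, chr14:57746102-57746131, plus strand: ctacattgttggCATTCCacgggcgtcacg
Tead1 site 3, chr7:112679075-112679275, plus strand: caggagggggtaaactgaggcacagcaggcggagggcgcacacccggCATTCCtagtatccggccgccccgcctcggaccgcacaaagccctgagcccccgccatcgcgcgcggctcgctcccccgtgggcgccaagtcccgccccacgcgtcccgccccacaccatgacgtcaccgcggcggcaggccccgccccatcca
Tead3 site 1, chr17:28332398-28332427, plus strand: ttCATTCCcctaggggccagcAACCACAca
Tead4 site 1, chr6:128300456-128300485, plus strand: aGGAATGcacGGAATGggcgctGGAATGag
Wwtr1 site 1, chr3:57575911-57576102, plus strand: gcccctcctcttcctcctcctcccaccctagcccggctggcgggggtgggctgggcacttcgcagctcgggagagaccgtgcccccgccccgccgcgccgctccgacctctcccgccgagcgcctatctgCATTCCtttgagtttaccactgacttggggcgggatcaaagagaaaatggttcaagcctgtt
Wwtr1 site 2, chr3:57575392-57575592, plus strand: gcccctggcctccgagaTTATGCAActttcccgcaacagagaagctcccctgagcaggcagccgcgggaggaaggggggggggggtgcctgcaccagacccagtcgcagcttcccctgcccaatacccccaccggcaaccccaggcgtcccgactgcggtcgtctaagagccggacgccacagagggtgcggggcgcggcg

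A further 4 sites were chosen after their values were seen: both sites that lie upstream of Yap1 with Yap1 as the nearest protein-coding start, and the 2 member sites with an AP-1 match that were called in both RUNX1 lists. They show an AP-1 match in an intron of Tead1 and upstream of Vgll4, a RUNX and an ETS match far upstream of Yap1, and a TEAD match at the Yap1 start.
Yap1 site 2, chr9:8017344-8017544, plus strand: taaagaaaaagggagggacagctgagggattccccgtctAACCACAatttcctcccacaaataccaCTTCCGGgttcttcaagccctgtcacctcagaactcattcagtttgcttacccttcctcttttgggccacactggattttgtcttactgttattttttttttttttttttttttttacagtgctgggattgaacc
Yap1 site 3, chr9:8004617-8004817, plus strand: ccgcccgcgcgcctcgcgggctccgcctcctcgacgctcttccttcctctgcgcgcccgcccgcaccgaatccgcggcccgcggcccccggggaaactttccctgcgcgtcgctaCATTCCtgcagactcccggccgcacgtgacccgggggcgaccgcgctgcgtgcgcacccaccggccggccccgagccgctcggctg
Tead1 site 5, chr7:112717816-112718016, plus strand: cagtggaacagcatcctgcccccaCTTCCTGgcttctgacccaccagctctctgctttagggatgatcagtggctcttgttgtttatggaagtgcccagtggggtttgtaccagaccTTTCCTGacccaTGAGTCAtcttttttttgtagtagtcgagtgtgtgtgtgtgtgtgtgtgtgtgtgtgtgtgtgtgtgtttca
Vgll4 site 2, chr6:114979719-114979919, plus strand: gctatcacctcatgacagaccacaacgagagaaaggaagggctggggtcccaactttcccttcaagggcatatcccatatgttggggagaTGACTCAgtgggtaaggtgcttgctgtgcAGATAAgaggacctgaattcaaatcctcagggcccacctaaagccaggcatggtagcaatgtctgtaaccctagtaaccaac

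All 9 genes had at least 1 RUNX1 site in the gene or within 50 kb, as did 78.0% of all protein-coding genes, so presence of a site does not set them apart. In the -DOX-labelled list all 9 had a summit in this window, against 73.5% of coding genes, and in the +DOX-labelled list 8 had one, all but Tead2, against 75.7%. The gene's own start was the nearest one for at least 1 site at 7 of the 9, all but Yap1 and Lats1, against 51.8% of coding genes. A site within 1500 bp of one of the gene's starts was found at 8 of the 9, all but Tead3, against 50% of coding genes. The number of sites per gene ran from 2 at Tead4 to 7 at Tead1, with a median of 4 against 3 over all coding genes. Per length the range was from 1.13 sites per 100 kb of window at Tead4 to 3.36 at Tead3, against a median of 1.84.

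**Figure D1:**
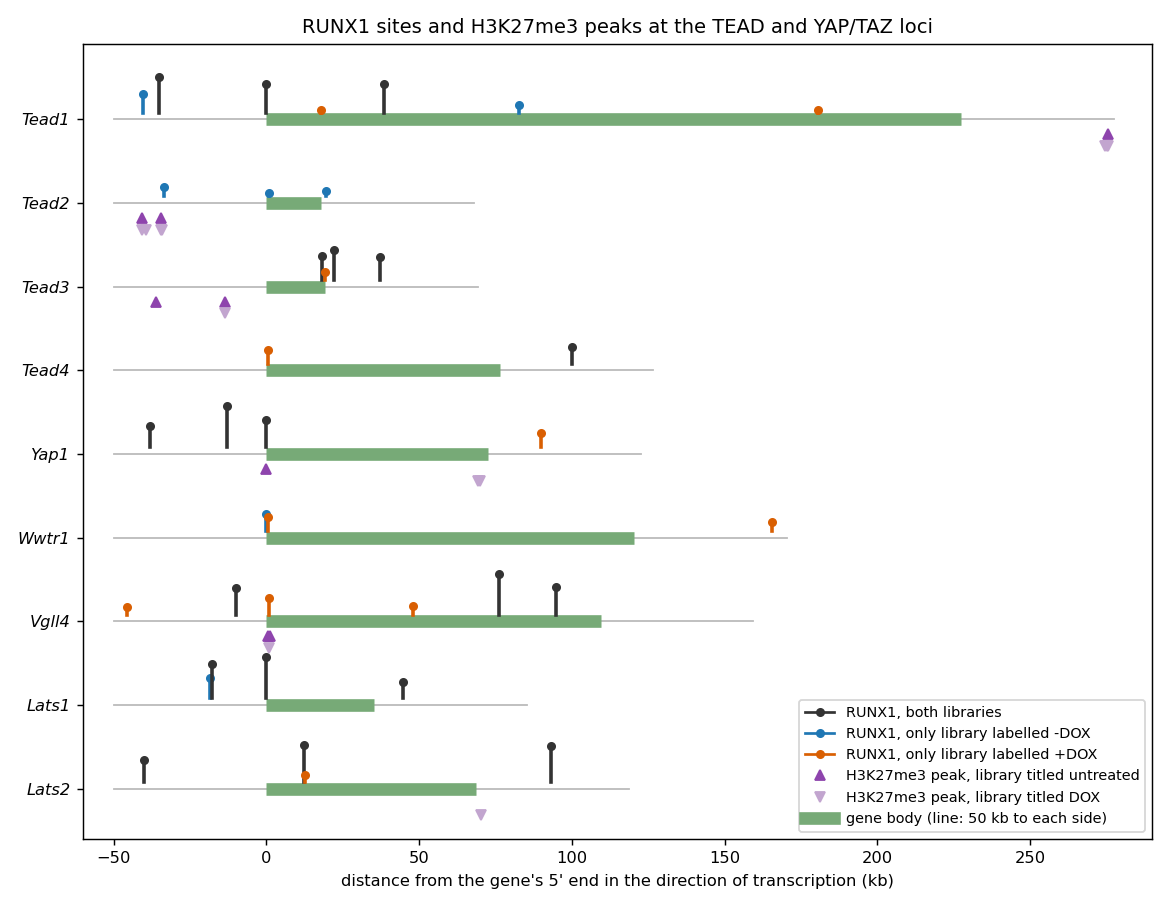
Map of the 9 loci, with the distance from the 5′ end of each gene in kb along the direction of transcription on the x axis. Upright lines are RUNX1 sites, coloured by the library or libraries with a summit and as tall as the site's higher percentile, and triangles under the gene are H3K27me3 peaks; sites at or near the 5′ end were seen at 7 genes, and the tallest lines stand upstream of Yap1, at the start of Lats1 and in an intron of Vgll4.

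Among the 37 sites, 19 (51.4%) had a summit in both RUNX1 lists, 7 (18.9%) only in the -DOX-labelled list and 11 (29.7%) only in the +DOX-labelled list. Over all sites these shares were 56.8%, 14.8% and 28.4%, close to those of the members. The 18 sites of 1 list were mostly weak: those only in the -DOX-labelled list ran from percentile 7.92 to 48.6 with a median of 21.5, and those only in the +DOX-labelled list from 5.19 to 40.4 with a median of 19.5. Of the 18, 3 overlapped a peak of the other list and 5 had a summit of the other list within 1500 bp, so part of this class differs by the place of the summit and not by the presence of a peak. The sites in both lists were stronger, with a median of 67.5 for the higher of the 2 percentiles, against 70.5 over all such sites.

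Shared sites at the member loci tended to rank higher in the +DOX-labelled list, where 14 of 19 had the higher percentile, against 58.0% of all shared sites. Only 6 of the 19 had a member's start nearest, and their differences, +DOX minus -DOX, ran from -16.0 to 27.9 percentile points. The widest differences, 43.6, 43.2 and -54.9, were at sites with the starts of Cfap300, Xpo4 and Gm45494 nearest. Over the 19 sites the median difference was 12.9 percentile points, against a median of 1.83 over all shared sites. The middle range of all shared sites ran from -7.06 to 15.5. That range is the scatter of single sites and not of a median of 19, and whether the members differ was not tested. Exchanging the libraries turns the direction of these ranks round.

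**Figure D2:**
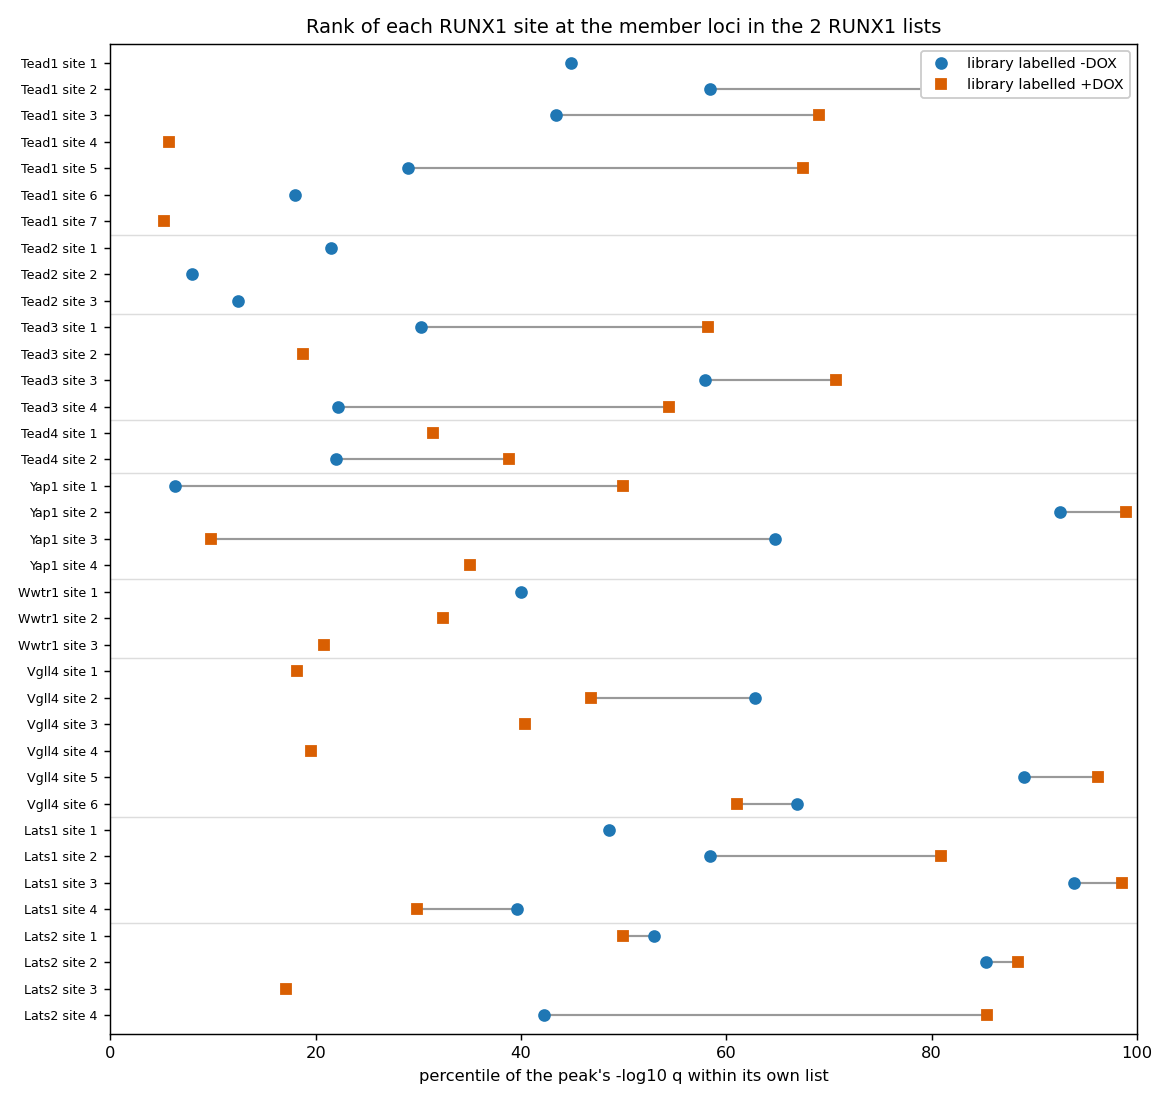
Percentile of the -log10 q of each of the 37 sites within its own list, with circles for the -DOX-labelled list and squares for the +DOX-labelled list, and a line between them where a site was called in both. The strongest sites, Yap1 site 2, Lats1 site 3 and Vgll4 site 5, lie at 89.0 or above in both lists, whereas the sites of Tead2 were called in 1 list only and lie at 21.5 or below.

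Of the 4 TEAD genes, Tead1 had the most sites. At its start, 143 bp upstream of the annotated 5′ end on chromosome 7 (site 3, summit 112679175), RUNX1 was called in both lists, with a fold of 4.79 and a -log10 q of 7.18 in the -DOX-labelled list and 6.34 and 13.4 in the +DOX-labelled list, which are percentiles of 43.4 and 69.0. This site, in an intron of 2310014F06Rik on the annotation, holds the TEAD match printed above, 50 bp from the summit. Within the gene, site 5 (summit 112717916, in an intron 38.6 kb from the 5′ end) was also shared, at percentiles of 29.0 and 67.5, and it holds an AP-1 match 32 bp from the summit.

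The remaining intronic sites of Tead1 were each called in 1 list and were weak. Sites 4 and 7, only in the +DOX-labelled list, had -log10 q of 3.31 and 3.23 and percentiles of 5.67 and 5.19, near the bottom of that list. Site 6, only in the -DOX-labelled list, had a -log10 q of 4.50 and a percentile of 18.0. Site 4 carries the other AP-1 match of the gene. Upstream, site 1 was called at percentile 44.9 only in the -DOX-labelled list, and site 2, 35252 bp from the 5′ end, ranked 58.4 and 84.3 in the 2 lists; both lie closer to the start of Gm45473.

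Tead2 was the one member with no summit in the +DOX-labelled list. Its 3 sites on chromosome 7 were called only in the -DOX-labelled list, and all were weak: site 2, 6 bp from a Tead2 start (summit 45216667), had a fold of 3.61, a -log10 q of 3.33 and a percentile of 7.92. The other 2 lay at the starts of neighbours, Pth2 (percentile 21.5) and Cd37 (12.4), a tetraspanin gene of blood cells. None of the 3 holds a match to any of the 7 motifs. With 1 library each and unknown depth, their absence from the +DOX-labelled list was not shown to be a change in binding.

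Tead3 had no site within 1500 bp of its starts, and its sites gathered at the 3′ end. Site 1 (chromosome 17, summit 28332437), in the 3′ part of the gene in an untranslated region, ranked 30.3 in the -DOX-labelled list and 58.2 in the +DOX-labelled list. Its TEAD match and RUNX match, 34 and 15 bp from the summit, make it the one member site with both. Sites 2, 3 and 4 had other starts nearest, Rpl10a for 2 of them and Fance for the last; the shared sites 3 and 4 ranked 57.9 and 70.7, and 22.2 and 54.4. All 3 shared sites at this locus ranked higher in the +DOX-labelled list.

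Tead4 had a single site of its own. It lay 351 bp inside a Tead4 start (chromosome 6, summit 128300387, untranslated region), and was called only in the +DOX-labelled list, with a fold of 4.78, a -log10 q of 6.01 and a percentile of 31.4. Within 30 bases it holds 3 TEAD matches, between 73 and 94 bp from the summit, more than any other member site. The nearest summit in the -DOX-labelled list was 55559 bp away, so no weaker peak of that list stood beside it. Site 2, far beyond the 3′ end at Gm10010, was shared at 22.0 and 38.8.

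Of the co-activator genes, Yap1 had the member site of highest rank in the +DOX-labelled list, second to Lats1 site 3 in the -DOX-labelled list, and it did not lie at the start: site 2 (chromosome 9, summit 8017444) lay in intergenic sequence 12848 bp upstream of the 5′ end. Its fold was 10.7 and its -log10 q 34.9 in the -DOX-labelled list, and 17.7 and 86.7 in the +DOX-labelled list, at percentiles of 92.5 and 98.9. This site carries a RUNX match 58 bp and an ETS match 31 bp from the summit. RUNX matches were found at 23.9% and ETS matches at 33.4% of distal RUNX1 sites, over 1500 bp from any start, against 4.82% and 14.7% of the windows shifted from them. The nearest start by distance was that of Gm45494, a gene that starts next to Yap1, while Yap1 was the nearest protein-coding gene.

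At the Yap1 start the order of the libraries was the opposite. Site 3 (summit 8004717), 121 bp upstream of the 5′ end, had a fold of 6.05 and a -log10 q of 11.5 in the -DOX-labelled list, but 3.82 and 3.78 in the +DOX-labelled list. Its percentile was 64.7 against 9.80, and 0.536% of all shared sites had a lower difference. The site holds a TEAD match 18 bp from the summit and overlaps an H3K27me3 peak of the library titled untreated, whereas the library titled DOX had no peak there. The start of Gm45494, at 113 bp, was slightly nearer to site 3 than that of Yap1, so no site at this locus had the Yap1 start nearest. Sites 1 and 4 had other protein-coding starts nearest. Site 1, at the start of Cfap300, ranked 6.26 and 49.9, and site 4, nearest to Birc3, was called only in the +DOX-labelled list at 35.0. Site 3 was thus the one of 3 shared sites at Yap1 that ranked lower in the +DOX-labelled list.

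Wwtr1 was called at its start in both lists, but with summits 510 bp apart. In the -DOX-labelled list the summit (site 1, chromosome 3, 57576002) lay 92 bp upstream of the start, with a fold of 4.78 and a percentile of 40.0. In the +DOX-labelled list it lay 336 bp inside the gene (site 2, 57575492), with a fold of 4.39 and a percentile of 32.4. The 2 peaks overlap, and counted by overlap they are 1 shared peak of like rank. Only the upstream summit has a TEAD match within 100 bp, and only the inner one a C/EBP match. Site 3, beyond the 3′ end and nearest to Tm4sf4, was called only in the +DOX-labelled list at 20.8.

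**Figure D3:**
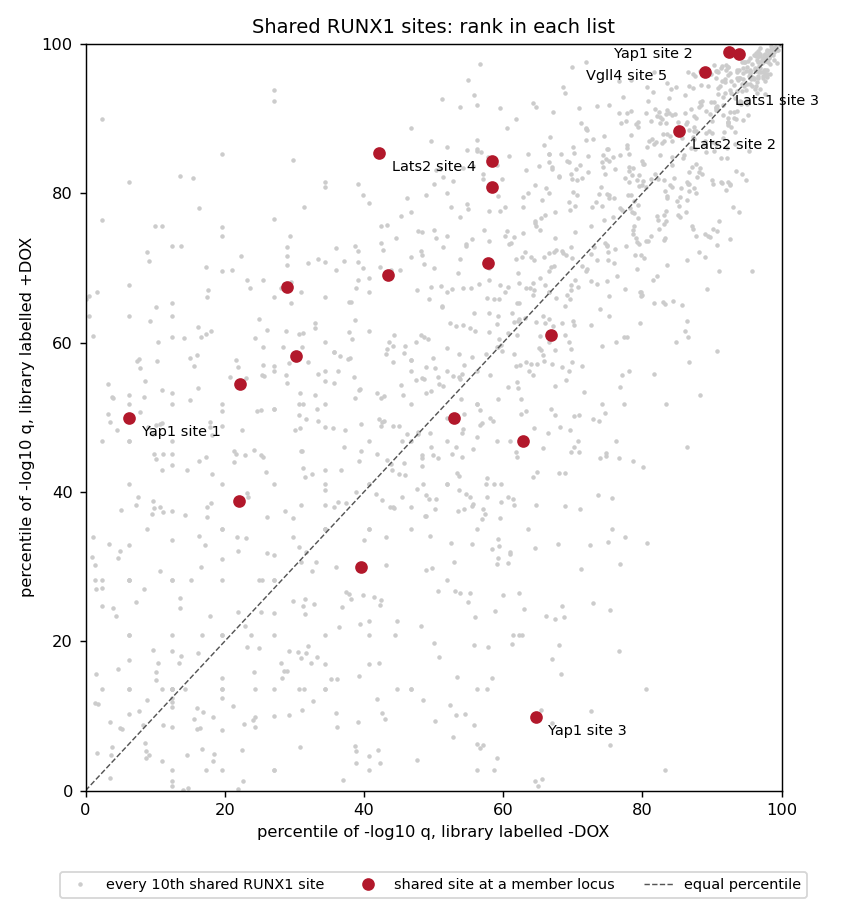
Percentile of -log10 q in the -DOX-labelled list (x axis) against the +DOX-labelled list (y axis), for every 10th of all shared RUNX1 sites (grey) and the 19 shared sites at the members (red), with a dashed line of equal percentile. Of the red points 14 lie above the line, and Yap1 site 3 lies far below it at 64.7 and 9.80.

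Vgll4 had 6 sites, 5 with a Vgll4 start nearest, the most of the members. The strongest was site 5, in an intron (chromosome 6, summit 114893929) and 18822 bp from the nearest Vgll4 start, with a fold of 9.37 and a -log10 q of 27.6 in the -DOX-labelled list and 11.8 and 50.7 in the +DOX-labelled list, at percentiles of 89.0 and 96.2. It carries a RUNX match and an ETS match, as the site upstream of Yap1 does. Site 6, 96 bp from an internal start, ranked 66.9 and 61.0, and site 2, 9825 bp upstream, ranked 62.8 and 46.8. Both were thus higher in the -DOX-labelled list, site 2 by more than the middle range of all shared sites, and site 2 has its AP-1 match 7 bp from the summit. At the start near the 5′ end, site 3 was called only in the +DOX-labelled list at 40.4, with a TEAD match, and it is the only RUNX1 site of the members under peaks of both H3K27me3 lists. Sites 4 and 1, also only in the +DOX-labelled list, were weak at 19.5 and 18.2.

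Both kinase genes had a strong site at a start, shared by both lists. The site at Lats1 (site 3, chromosome 10, summit 7681133) lay 81 bp upstream of the Lats1 5′ end. It also lay 3 bp upstream of 1 start of Pcmt1, a gene on the other strand, and in an untranslated region annotated to Pcmt1. By position this site cannot be assigned to either gene alone. Its fold was 9.29 and its -log10 q 39.3 in the -DOX-labelled list, and 14.6 and 79.0 in the +DOX-labelled list, at percentiles of 93.9 and 98.6. It holds none of the 7 motifs within 100 bp. Pcmt1 or Katna1 had the nearest start at the other 3 sites of this locus, of which site 1 was called only in the -DOX-labelled list at 48.6, with a summit of the other list 449 bp away.

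At Lats2 the strong site lay at an internal start, 12247 bp from the 5′ end. Site 2 (chromosome 14, summit 57746141) had a fold of 8.44 and a -log10 q of 22.8 in the -DOX-labelled list and 8.93 and 26.6 in the +DOX-labelled list, at percentiles of 85.3 and 88.4, nearly equal. It holds a TEAD match 24 bp and an ETS match 88 bp from the summit. Next to it, 450 bp inside the start and nearest to a start of Gm49361 at 448 bp, site 3 was called only in the +DOX-labelled list, at 17.1. The other 2 sites lay at Mir3077, inside Sap18, and at the start of Xpo4, and the one at Xpo4 ranked 42.2 and 85.4.

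TEAD matches were found at 7 member sites and AP-1 matches at 3, and no difference in their place was tested. Within 100 bp of the summit, 7 of 37 member sites held GGAATG (18.9%, 95% Wilson interval 9.48 to 34.2), against 12.2% of the windows 2000 bp from these sites, a share inside that interval. Over all RUNX1 sites the match was found at 8.69%, against 10.1% of their shifted windows. The 7 belong to 7 genes, Tead1, Tead3, Tead4, Yap1, Wwtr1, Vgll4 and Lats2, and 6 of them lay within 1500 bp of a member's start. Of the 12 sites that near to a member's start, 6 held the match (95% interval 25.4% to 74.6%), against 6.60% of the 13467 RUNX1 sites within 1500 bp of any start. In the windows shifted from the same 12 sites it was found in 5 of 24 (20.8%), so the letters were frequent around them too. The intervals cover counting error only, 7 motifs were searched, and a match this short is common.

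AP-1 matches were found at 3 of the 37 sites (8.11%, 2.80 to 21.3), Tead1 sites 4 and 5 and Vgll4 site 2, all over 1500 bp from any start. With 1 mismatch allowed outside the first 3 letters, matches were found at 8 sites. This looser pattern was not counted over all sites or in shifted windows, so no share stands beside it. Over all sites the share with the exact match was 4.99%, and over distal ones 7.73%, against 3.49% of the windows shifted from them. No member site held both a TEAD and an AP-1 match, and the 95% interval of that share reached up to 9.41%. Over all RUNX1 sites both were found at 151 (0.605%), of which 61 were in both lists, 13 only in the -DOX-labelled list and 77 only in the +DOX-labelled list, which are 0.430%, 0.351% and 1.09% of each class. Shifted windows held both at 0.344% over all sites and at 0.360%, 0.324% and 0.324% by class. In 16 of the 151 the 2 matches were 0 to 10 bp apart, and in 11 they overlapped. The median gap was 45 bp, and 2 sites had the 7 bp spacing that the paper describes for a composite AP-1/TEAD element. No expected share stands beside these counts. By class, AP-1, with or without TEAD, was found at 3.98% of shared sites, 3.81% of sites only in the -DOX-labelled list and 7.63% of those only in the +DOX-labelled list, while TEAD was found at 7.65%, 10.1% and 10%, each at or below its shifted windows (9.89%, 10.1% and 10.4%). Over all sites of each class PU.1 was found at 3.79%, 1.86% and 7.90%, C/EBP at 5.31%, 5.43% and 9.43%, and GATA at 11.8%, 16.4% and 9.28%. Their shifted windows held PU.1 at 1.22%, 1.27% and 1.40%, C/EBP at 8.03%, 8.60% and 8.11%, and GATA at 11.0%, 10.4% and 11.0%. For AP-1 those windows gave 3.64%, 3.40% and 3.40%. The classes differed in mix: 5173 of 14177, 2087 of 3703 and 4245 of 7092 sites were distal. Among distal sites alone, GATA shares were 24.0%, 23.9% and 12.4%, nearly equal in the first 2 classes. Distal AP-1 shares were 6.92%, 4.98% and 10.1%, PU.1 6.80%, 2.40% and 10.5%, and C/EBP 8.10%, 6.61% and 11.5%. The windows shifted from these distal sites held AP-1 at 3.57%, 3.50% and 3.39%, and PU.1 at 1.22%, 1.10% and 1.40%. For C/EBP they gave 8.02%, 8.10% and 8.21%, so its share was near them in the first class and below them in the second. Distal TEAD shares were 10.4%, 12.1% and 11.5%, above their shifted windows (9.88%, 10.2% and 10.3%). These directions too turn round if the libraries were exchanged. The paper reports RUNX1, AP-1, PU.1 and C/EBP motifs at RUNX1 sites lost with dnFOS, and RUNX, GATA and ETS at gained sites. By the labels, the order here was the reverse for AP-1, PU.1, C/EBP and GATA, but not for ETS (24.4% only -DOX-labelled, 29.8% only +DOX-labelled). Among distal sites of these classes ETS was at 27.9% and 32.4%. RUNX, which the paper names at lost and gained sites, was at 18.7% and 23.8% of them. The paper classed sites by change in tag count after a filter on DNaseI data, not by called peaks.

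RUNX matches stood at 4 of the 37 sites (10.8%, 4.29 to 24.7), against 14.3% of all sites, and none of the 4 lay within 1500 bp of any start. The 4 sites are Yap1 site 2, Vgll4 site 5, Tead3 site 1 and the weak Tead1 site 7. ETS matches were the most frequent, at 15 of 37 (40.5%, 26.3 to 56.5), while windows 2000 bp from these same sites held them at 20.3%. The corresponding shares over all sites were 29.9% and 14.3%. No member site held the PU.1 word (0 of 37, up to 9.41%), against 4.67% of all sites. None of the 7 motifs was found at 14 of the sites, 37.8% of them, against 44.5% of all sites. The member sites were rich in G and C, with a median of 65.7% against 56.7% over all sites, and the part of this in the motif shares was not tested.

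**Figure D4:**
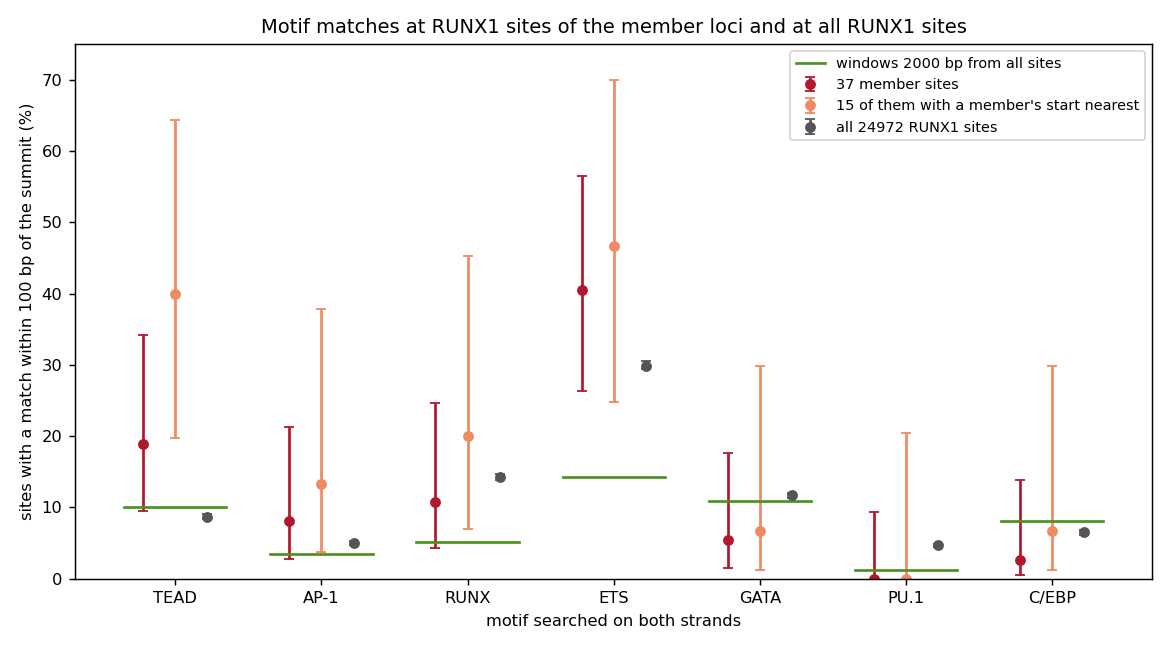
Share of sites with a match to each of 7 motifs within 100 bp of the summit (y axis, percent), for the 37 member sites, the 15 with a member's start nearest and all 24972 sites, with 95% Wilson intervals as bars and a green line for windows 2000 bp from all sites. TEAD is found at 18.9% of the member sites, among them 6 of the 15, against 8.69% of all sites.

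The promoters of RefSeq, each a short stretch around a transcription start, from GRCm38.p6, were searched as well, after the site sequences had been seen. The table held 11 promoters of 7 of the members, with none for Tead1 and Tead4. TEAD matches were found in 7 of the 11 (63.6%), those of Lats2, Tead3, Vgll4, Wwtr1 and Yap1, against 14.7% of 32851 promoters. Promoters of 1 gene can overlap and share a match, and 4 of the 5 genes, all but Tead3, already had a TEAD match at a RUNX1 site near a start, so the search can count the same bases again and is no separate evidence. Of the other Hippo pathway genes 9 of 25 promoters (36.0%) and of YAP/TEAD target genes 6 of 16 (37.5%) held one. AP-1 and RUNX matches were in 0 of the 11, against 5.20% and 5.27% of all promoters.

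H3K27me3 peaks stood in the windows of several members but mostly at neighbouring genes. There were 8 peaks in the library titled untreated, at 5 genes, and 12 in that titled DOX, at 6, against 33.2% and 35.3% of coding genes with a peak in the same window. Most stood at Rassf10 beyond Tead1, at Slc17a7, Gfy and Pth2 upstream of Tead2, at Tulp1 upstream of Tead3 and near Gm26440 beyond Lats2. Within 1500 bp of a member's own start the list titled untreated had a peak at 2 of 9 genes, Yap1 and Vgll4, against 11.7% of coding genes, and the list titled DOX at 1, Vgll4, against 11.1%. No peak of either list was found at the Tead4, Wwtr1 or Lats1 loci.

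At the Yap1 start the peak of the library titled untreated was 195 bp wide, with a fold of 6.60 and a percentile of 65.6, and it overlapped the RUNX1 peaks of both libraries there. In the library titled DOX the 2 peaks at Yap1 lay in an intron near the 3′ end, at percentiles of 23.1 and 57.3. At the Vgll4 start the library titled untreated had 2 peaks, at percentiles of 64.2 and 62.9, and that titled DOX 1 peak, at 78.2, the highest of the 20 at these loci. The lists are made of narrow peaks, with median widths of 180 and 122 bp, and a broad low domain of the mark would not appear in them. RUNX1 sites under the mark were 2 and 1 of 37, against 6.19% and 6.56% of all sites.

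RUNX1 sites were widespread at the other Hippo pathway genes too. Of 27 genes, among them upstream kinases, adaptors and membrane proteins, 26 had a RUNX1 site in the window, 23 were nearest to one and 21 had one within 1500 bp of a start. The 3 with the highest percentile at a site of their own were Sav1, the adaptor of the MST kinases, with 90.8 and 95.1 in the -DOX-labelled and +DOX-labelled lists at a site 131 bp upstream of its start, Amot, an angiomotin that holds YAP at junctions, with 94.3 and 94.6 at a site 9877 bp upstream, and Amotl2, its relative, with 91.1 and 86.5 at its start. All 3 were called in both lists. Over the 27 genes, the 43 sites with the own start nearest were 27 shared, 5 only in the -DOX-labelled list and 11 only in the +DOX-labelled list. Over all RUNX1 sites these classes made up 56.8%, 14.8% and 28.4%. H3K27me3 lay within 1500 bp of a start at 7 genes in the list titled untreated, Wwc1, Amotl1, Vgll2, Rassf5, Ajuba, Fat4 and Dchs1, and at 6 of these, all but Vgll2, in the list titled DOX.

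Of 22 genes known as targets of YAP and TEAD, 20 had a site in the window, 17 were nearest to one and 13 had one within 1500 bp of a start. Amotl2 and Ptpn14 belong to this list and to the Hippo list. The highest were Ankrd1, with 96.1 in the -DOX-labelled list and 88.8 in the +DOX-labelled list at a site 9819 bp upstream, Amotl2 as above, and Dock5, with 88.6 and 89.8. Ccn2, the gene of CTGF and a classical target, had 2 sites in the window but was nearest to none, and Ccn1 had a single site of its own at 60.5 and 39.8. Over the 22 targets, the 34 sites with the own start nearest were 16 shared and 9 in each list alone. Of all RUNX1 sites, 56.8% were shared, 14.8% only in the -DOX-labelled list and 28.4% only in the +DOX-labelled list. Peaks of H3K27me3 lay within 1500 bp of a start at Tgfb2, Crim1, Foxf2 and Igfbp3 in both lists, at Arhgef17 only in that titled untreated and at F3 only in that titled DOX. The shares of both lists stand beside those of all coding genes given above, and nothing was tested between lists.

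**Figure D5:**
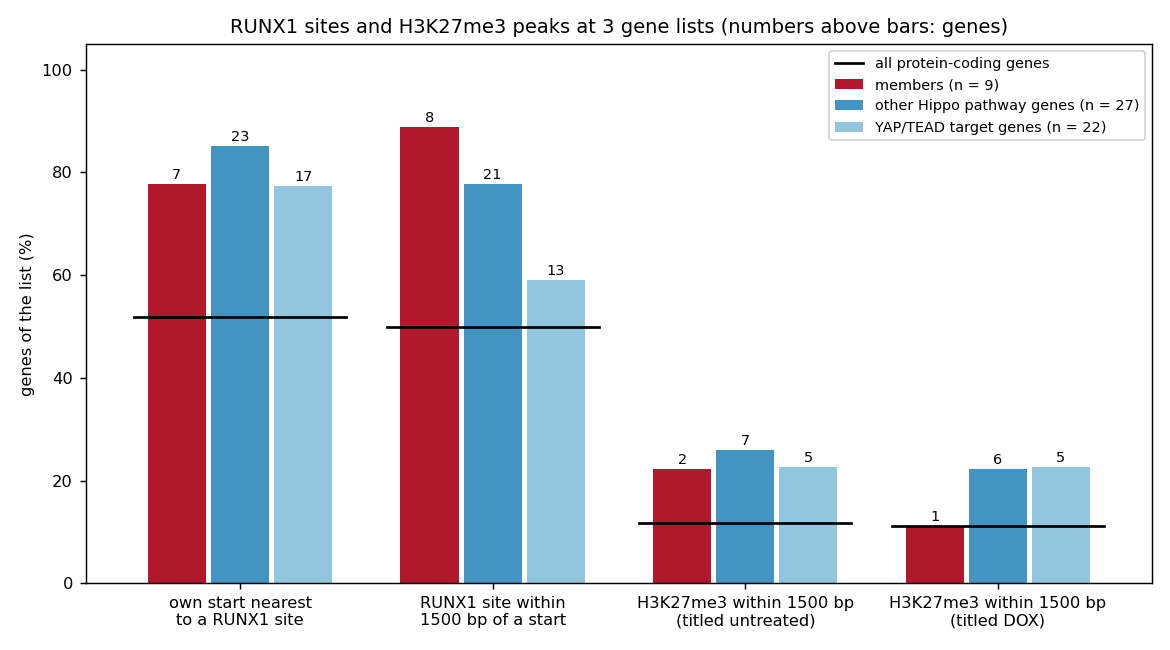
Percent of the genes of 3 lists (bars, number of genes above each) with their own start nearest to a RUNX1 site, with a RUNX1 site within 1500 bp of a start, and with an H3K27me3 peak within 1500 bp of a start in each H3K27me3 list, with a black line for all protein-coding genes. For RUNX1 near a start, 8 of 9 members, 21 of 27 other Hippo genes and 13 of 22 targets stand above the line at 50%.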

How the data were processed

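ChIP-seq peak lists of 4 libraries, 1 per condition, were used. Per the study's methods and the submitters' processing notes, the authors trimmed and aligned reads to mm10 (Bowtie2 2.2.9 in the notes), removed duplicates and called peaks for each library with MACS2 2.1.1 at a q of 0.05. The paper names another version of Bowtie2 and no input control, and the processing of the H3K27me3 libraries is not given in the sources used here. The deposited values are a ratio, the fold enrichment over local background, and the -log10 of the p-value and of the q-value of each peak. The lists may precede the authors' filters on blacklisted and repeat regions. Depth is unknown.

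Only autosomes, X and Y were kept. RUNX1 summits within reach of each other, after adding 200 bp on both sides, formed 1 site, and a site was shared when both lists had a summit in it. Percentiles are ranks of -log10 q within the own list. Genes and starts are from GENCODE vM21, and sequence is from the same build. Motifs were searched on both strands within 100 bp of the summit of the peak with the higher percentile, and in windows shifted by 2000 bp to either side. Shares have 95% Wilson intervals, for counting error only. Python 3.11.15, numpy 2.4.6, pandas 2.3.3, pysam 0.24.0 and matplotlib 3.10.9 were used, and the site, distance and motif steps were tested on simulated data. With 1 library per condition no test was made. The members and gene lists were chosen with earlier results of these data known. Named in the text were all members with each site whose nearest start is theirs, and of the pathway lists the 3 genes with the highest percentile and those with H3K27me3 within 1500 bp of a start, apart from Ccn1 and Ccn2, named after their values were seen. Alternatives changed the distance, the q threshold, the extension, the length of the lists, the rule for shared sites, the labels of the RUNX1 libraries, the motifs and their window.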

Additional observations from a re-analysis of the deposited data

How the results depend on the processing

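Of 86 alternative values, 58 stayed within 1.5 times the value reported. With a distance of 10 kb the members had 23 RUNX1 sites, 4 of them only in the library labelled -DOX and 11 in both, and 3 and 4 H3K27me3 peaks in the libraries titled untreated and DOX. With 100 kb there were 62 RUNX1 sites, 36 in both lists. With the member's start nearest there were 15 sites (3 only labelled -DOX, 6 only labelled +DOX, 6 in both) and 2 and 3 H3K27me3 peaks. At a -log10 q of at least 5, 4 sites were only in the library labelled -DOX, 7 only in that labelled +DOX, and 5 H3K27me3 peaks were in the library titled untreated. At a -log10 q of at least 10, 14 sites were left (2 only labelled -DOX, 7 only labelled +DOX and 5 in both lists), 4 members were nearest to a site, 4 sites had a TEAD match, and 0 H3K27me3 peaks were left in either list. Peaks were cut before sites were formed, and no site of 1 list in the main count reached 10 (highest 7.93 labelled -DOX, 7.24 labelled +DOX). The 2 and 7 are therefore shared sites whose weaker peak fell below the cut, and the counts at 5 hold such sites too. Summits extended by 100 bp gave 11 sites only in the library labelled -DOX. Exchanging the RUNX1 libraries gave 11 sites only labelled -DOX and 7 only labelled +DOX. The AP-1 consensus with 1 mismatch was found at 8 sites, with no count over all sites beside it. No paired analysis was possible because each condition had 1 library and the values come from no test.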
